A study of Schizosaccharomyces pombe with 9 samples.

Results

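Of the 5323 features listed in the expression table of this fission yeast (*Schizosaccharomyces pombe*) series, 42 formed a set whose transcripts were high under nitrogen starvation when the Tup corepressors were deleted and lower again when Php5 was deleted as well, but which stood outside the set of glucose starvation genes. Expression is given as TPM (transcript abundance corrected for feature length and scaled so that each library adds up to the same total). A member had at least 5 TPM under nitrogen starvation in the library labelled *tup11∆/tup12∆*, more than 2 times the TPM of the wild type and more than 2 times the TPM of the library labelled *tup11∆/tup12∆/php5∆* in the same medium. Left out were the genes that in the wild type rose more than 2-fold upon glucose starvation from at most 100 TPM to at least 100 TPM. Of 265 features derepressed under nitrogen starvation, 59 were more than 2-fold lower without *php5*, and these divided into the 42 members and 17 genes of the glucose set, while 206 derepressed features were not lowered past 2-fold.

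The study asked how the corepressors and Php5 keep gene activation specific to 1 kind of starvation. Poly(A) RNA of wild-type (WT), *tup11∆/tup12∆* (tup11/12d) and *tup11∆/tup12∆/php5∆* (tup11/12/php5d) cells was sequenced after 2 h in 3 media. Glucose rich medium was yeast extract with 6% glucose, and glucose starvation medium was yeast extract with 0.1% glucose and 3% glycerol. Nitrogen starvation medium was a minimal medium with 1% glucose, to which the study added the amino acids that were required. Which of them each strain received is not stated. Each of the 9 conditions had 1 library, so no difference between conditions has a replicate check and no p-value is given. Ratios carry exact Clopper-Pearson 95% intervals from the reads behind each value, which cover counting error only.

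Tup11 and Tup12 are the fission yeast relatives of the budding yeast corepressor Tup1, which is brought to promoters by DNA-binding proteins and keeps genes for other carbon sources, mating and stress silent. Php5 belongs to the conserved trimer that binds CCAAT letters in DNA, whose budding yeast relative activates respiratory genes. In fission yeast, shortage of nitrogen or glucose also starts mating and meiosis, through the transcription factor Ste11 and the pheromone pathway.

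The libraries held between 36652045 and 54303622 reads, and 3 reads, the smallest amount taken as seen, were worth 0.0395 to 0.0702 TPM. *tup11* lay at 0.418 TPM or less in the 6 mutant libraries against 41.9 to 67.4 TPM in the wild type, and *php5* fell to between 8.92 and 30.2 TPM in the *tup11∆/tup12∆/php5∆* libraries against 61.6 to 126 TPM in the other 6. *tup12* reads remained at 54.5 to 117 TPM in the libraries labelled as its deletion, so the names used here are those of the labels. *ura4*, the marker placed in *tup11* and *tup12*, had 0 reads in the wild type and 36.1 to 179 TPM in the mutants, so the strains also differ in that gene. Under glucose starvation the *tup11∆/tup12∆/php5∆* library stood apart, since the TPM of 34.2% of all features tested there was more than 2-fold higher in the *tup11∆/tup12∆* library.

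Under nitrogen starvation, which chose the genes, the members spanned a wide range of levels. The highest was *gor1*, a glyoxylate reductase gene, with 3764 TPM in the *tup11∆/tup12∆* library, and the lowest was *mfm1*, which encodes a precursor of the mating pheromone M-factor, with 15.9 TPM. The median TPM of the 42 members was 27.4 in the wild type, 168 in the *tup11∆/tup12∆* library and 42.4 in the *tup11∆/tup12∆/php5∆* library. These ratios follow from the rule and are a description, beside 5.31% of all features tested that were more than 2-fold higher in the *tup11∆/tup12∆* library than in the wild type and 3.21% that were more than 2-fold higher than in the *tup11∆/tup12∆/php5∆* library. Just inside the limit against the wild type were *idh2* with a ratio of 2.0035, *pom34* with 2.01 and SPAC11D3.15 with 2.06, and just outside were *kgd2* with 1.997, *mfs3* and *pex7*, both with 1.98. At the limit against the *tup11∆/tup12∆/php5∆* library, *srw1* (2.004), *mit1* (2.007) and *gti1* (2.03) lay inside, and *gto1* (1.99), *pho841* (1.90) and *eca39* (1.88) outside. The least expressed members were *mfm1* (15.9 TPM), *mit1* (17.2 TPM) and *dni2* (21.1 TPM), and the highest of the features that failed only the limit of 5 TPM was the tRNA gene SPATRNALYS.04 (1.71 TPM).

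In the wild type, glucose starvation raised 21 members more than 2-fold when no minimum TPM was set. Where either library had at least 5 TPM, 19 of 37 members passed, beside 19.2% of all features tested. Both libraries entered the rule. Of the 21 members, 6 were kept out of the glucose set because they already exceeded 100 TPM under glucose rich conditions. A further 15 were kept out because they stayed below 100 TPM upon starvation. The other 21 members did not pass 2-fold upon glucose starvation in the wild type. Members were grouped by the roles of their products after their values had been seen. Of them, 8 belonged to carbon metabolism, 11 to pheromone signalling, mating and meiosis, and 5 to transporters and cell surface proteins. A mixed group of 6 held kinases, glucose signalling, transcription and chromatin genes and the ubiquitin ligase adaptor gene *btb1*. The remaining 12 had other or unknown functions.

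**Figure D1:**
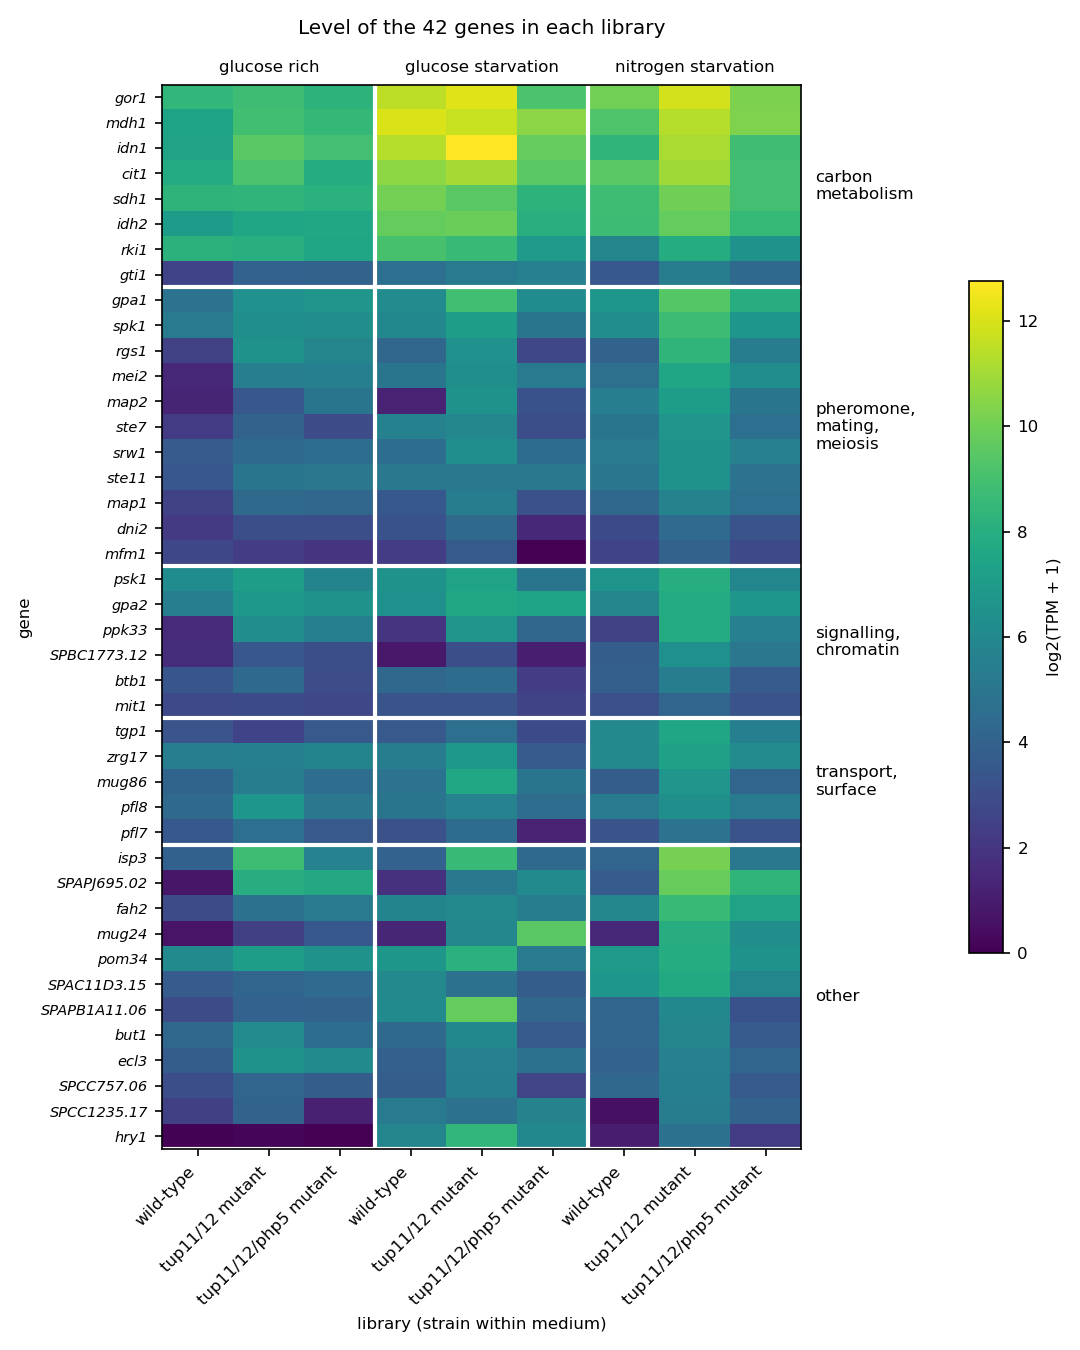
Heat map of log2(TPM + 1) of the 42 genes (vertical axis, ordered within role groups by their TPM in the *tup11∆/tup12∆* nitrogen starvation library) in the 9 libraries (horizontal axis, 1 library per strain and medium). The top rows, *gor1*, *mdh1*, *idn1* and *cit1*, lie between 1524 and 4164 TPM in the wild type under glucose starvation, and the pheromone and mating genes are brightest in the *tup11∆/tup12∆* library under nitrogen starvation.

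The 4 mutant libraries from the glucose media took no part in choosing the members, so they show whether derepression was also seen without nitrogen starvation. The wild-type libraries of these media entered the rule, which used them to leave out the glucose set. Under glucose rich conditions 29 of the 40 members tested were more than 2-fold higher in the *tup11∆/tup12∆* library than in the wild type, beside 3.51% of all features tested. Features were tested here where either library had at least 5 TPM. No member was more than 2-fold lower (1.26% of all features were). On the scale of log2(TPM + 1), the median difference of the members was 1.34 against -0.18 for all features tested. Among the genes derepressed under nitrogen starvation without a 2-fold loss in the *tup11∆/tup12∆/php5∆* library, 87 of 199 were past 2-fold in the same comparison, as were 9 of 17 glucose set genes.

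Under glucose starvation 26 of 42 members were more than 2-fold higher in the *tup11∆/tup12∆* library than in the wild type (4.08% of all features tested), and 1, SPAC11D3.15, was more than 2-fold lower (6.16%). The median log2 difference was 1.33 against -0.32 for all features. Only 3 of 17 glucose set genes passed 2-fold in this comparison, and their median was -0.30, but the glucose set was defined by its high level in the same wild-type library, so the choice itself bears on that contrast. In RNA from whole cultures, fewer cells expressing a gene and less RNA per cell cannot be told apart.

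Loss of *php5* gave different pictures in the glucose media, in a comparison that shares the *tup11∆/tup12∆* libraries with the one above. With glucose at hand, 9 of 40 members tested were more than 2-fold higher in the *tup11∆/tup12∆* library than in the *tup11∆/tup12∆/php5∆* library (1.4% of all features tested) and 3, *mug24*, *tgp1* and *map2*, were more than 2-fold lower (4.28%), with a median log2 difference of 0.33 against -0.12. Under glucose starvation 33 of 42 were higher (34.2%) and 1 was lower (5.31%), with a median of 2.17 against 0.62. With size factors that centre the libraries on the median feature, the latter count became 27 of 42 beside 14.7% of all features, and the medians 1.62 and -0.02. The 206 derepressed features that were not *php5*-dependent under nitrogen starvation gave 46 higher of 204 tested under glucose starvation and 7 of 202 under glucose rich conditions.

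**Figure D2:**
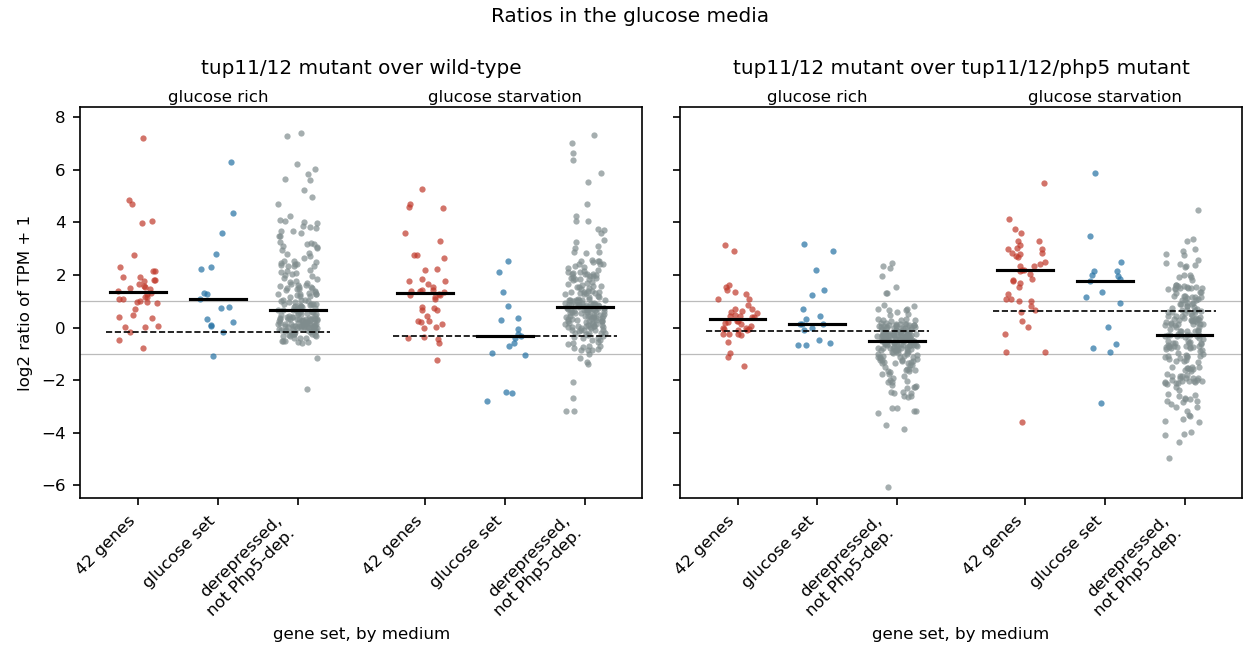
Log2 ratio of TPM + 1 (vertical axis) of each gene in the *tup11∆/tup12∆* library over wild-type (left) and over *tup11∆/tup12∆/php5∆* (right), under glucose rich and glucose starvation conditions. Points are genes, solid bars the medians of the 42 genes, the 17 glucose set genes and the 206 other derepressed features, dashed lines the medians of all features tested, and grey lines 2-fold; the median of the 42 genes lies at 1.34 and 1.33 over wild-type, and at 0.33 and 2.17 over *tup11∆/tup12∆/php5∆*.

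Carbon metabolism held the most abundant members. These are *gor1*, the citric acid cycle genes *mdh1* (malate dehydrogenase), *cit1* (citrate synthase), *sdh1* (succinate dehydrogenase) and *idh2* (a subunit of the NAD+-dependent isocitrate dehydrogenase), the gluconokinase gene *idn1*, the ribose 5-phosphate isomerase gene *rki1* of the pentose phosphate pathway, and *gti1*, an inducer of gluconate transport. In the wild type, 7 of the 8 rose more than 2-fold upon glucose starvation, beside 19.2% of all features, in a comparison that the rule used. Only *idn1* was also more than 2-fold higher in the *tup11∆/tup12∆* library than in the wild type under that condition. Without *php5*, 7 of the 8 were more than 2-fold lower under glucose starvation, the exception being *gti1*, beside 34.2% of all features in the *tup11∆/tup12∆/php5∆* library that stood apart. Under glucose rich conditions 1 of the 8, *cit1*, was lower (1.4% of all features). With size factors that centre the libraries on the median feature, *mdh1*, *sdh1*, *idh2* and *gti1* no longer met the rule.

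The TPM of *cit1*, whose enzyme opens the citric acid cycle, was 231, 1524 and 717 in the wild type in glucose rich, glucose-starved and nitrogen-starved cultures, 572, 2087 and 1951 in the *tup11∆/tup12∆* libraries, and 235, 716 and 492 in the *tup11∆/tup12∆/php5∆* libraries. The *tup11∆/tup12∆* library was the highest in each medium, and the *tup11∆/tup12∆/php5∆* library lay at the wild-type level under glucose rich conditions and below it in both starvation media. Under glucose rich conditions the *tup11∆/tup12∆* library exceeded wild-type 2.48-fold (95% interval 2.44 to 2.52) and *tup11∆/tup12∆/php5∆* 2.44-fold (2.40 to 2.48).

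For *idn1*, the values in the same order were 164, 2578 and 328 TPM in the wild type, 732, 6952 and 2263 in *tup11∆/tup12∆* libraries and 486, 866 and 467 in *tup11∆/tup12∆/php5∆* libraries. Its 6952 TPM was the highest value of any member in any library. Under glucose starvation the *tup11∆/tup12∆* library was 2.70-fold above wild-type (2.67 to 2.72) and 8.03-fold above *tup11∆/tup12∆/php5∆* (7.94 to 8.12), whereas under glucose rich conditions the latter ratio was 1.51 (1.48 to 1.53). The coding sequence of *idn1* lies wholly under other annotated transcripts, among them that of *vps26*, and the reads carry no strand, so the transcripts cannot be told apart there.

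*gor1* had 346, 2859 and 1067 TPM in the wild type, 446, 4591 and 3764 in *tup11∆/tup12∆* libraries and 306, 569 and 1205 in *tup11∆/tup12∆/php5∆* libraries. *mdh1* had 168, 4164 and 614 TPM, then 484, 3251 and 2568, then 358, 1515 and 1268 in the same order. Both rose strongly upon glucose starvation in the wild type, but *mdh1* was already 2.88-fold higher (2.82 to 2.94) in *tup11∆/tup12∆* than in the wild type under glucose rich conditions, whereas *gor1* had a ratio of 1.29 (1.26 to 1.31). *mdh1* also kept 2.07 times (2.04 to 2.09) its wild-type TPM in the *tup11∆/tup12∆/php5∆* library under nitrogen starvation.

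*sdh1* was at 315, 1093 and 445 TPM in the wild type, 321, 733 and 1007 in *tup11∆/tup12∆* libraries and 281, 302 and 492 in *tup11∆/tup12∆/php5∆* libraries. *idh2* was at 134, 870 and 430 TPM, 186, 947 and 861 TPM, and 198, 263 and 370 TPM. Neither gene passed 2-fold between *tup11∆/tup12∆* and the wild type in a glucose medium, and in the *tup11∆/tup12∆/php5∆* library both were below wild-type under glucose starvation. Among 15 genes of the respiratory chain in a fixed list, of which *sdh1* was the only member, 12 were more than 2-fold higher in *tup11∆/tup12∆* than in *tup11∆/tup12∆/php5∆* under glucose starvation (34.2% of all features, in the library that stood apart) and 3 under glucose rich conditions (1.4%), while none passed 2-fold between *tup11∆/tup12∆* and the wild type in either glucose medium.

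*rki1* differed from the rest of the group in the wild type, with 290, 521 and 54.6 TPM, so that its level was lowest under nitrogen starvation. It held 259, 385 and 235 TPM in *tup11∆/tup12∆* libraries and 186, 119 and 90.2 TPM in *tup11∆/tup12∆/php5∆* libraries. *gti1* stayed low, with 4.91, 24 and 10.3 TPM in the wild type, 15.3, 38.8 and 40.0 in *tup11∆/tup12∆* and 15.7, 45.7 and 19.8 in *tup11∆/tup12∆/php5∆*. Its ratio of *tup11∆/tup12∆* to *tup11∆/tup12∆/php5∆* was 0.975 (0.918 to 1.04) under glucose rich conditions and 0.849 (0.817 to 0.882) under glucose starvation, so that only nitrogen starvation showed a loss past 2-fold without *php5*.

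The promoters of *cit1* and *idn1* are shown because they, with *gpa2*, were the 3 members whose promoter held both a CRE core (TGACGT, the letters bound by Atf1 and its relatives) and a STRE core (CCCCTC or CCCCGC, bound by zinc finger factors such as Rst2). Promoters were the 250 bases before and 50 bases after the annotated transcript start, searched on both strands in the RefSeq ASM294v3 assembly, and both cores stood in 3 of 42 members (7.14%), in 0 of 17 glucose set genes and in 15 of 5113 protein-coding genes (0.293%). The runs below end at the base before the transcript start, read 5′ to 3′ along the gene, and have CCAAT, CRE and STRE matches in capitals. They cover chrI:2327708-2327827 on the plus strand for *cit1* (SPAC6C3.04), chrI:2276710-2276869 on the plus strand for *idn1* (SPAC4G9.12) and chrI:2519240-2519459 on the minus strand for *gpa2* (SPAC23H3.13c), a Gα subunit gene of the glucose-sensing pathway described further on.
cit1: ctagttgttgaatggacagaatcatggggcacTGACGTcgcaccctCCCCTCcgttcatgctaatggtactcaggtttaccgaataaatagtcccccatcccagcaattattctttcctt
idn1: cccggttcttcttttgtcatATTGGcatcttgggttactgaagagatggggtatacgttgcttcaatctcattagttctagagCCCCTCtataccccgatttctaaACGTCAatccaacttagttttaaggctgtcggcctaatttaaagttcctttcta
gpa2: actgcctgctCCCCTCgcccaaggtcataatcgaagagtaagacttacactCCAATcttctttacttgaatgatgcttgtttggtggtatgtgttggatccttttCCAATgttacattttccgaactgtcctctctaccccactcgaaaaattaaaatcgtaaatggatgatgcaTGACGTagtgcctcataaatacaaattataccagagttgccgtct

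Between the CRE and STRE matches lay 8 bases in *cit1*, 17 in *idn1* and 159 in *gpa2*. A STRE core was present in 5 of the 8 carbon metabolism members. In all, 11 of the 42 members (26.2%) had one, as had 5 of 17 glucose set genes (29.4%) and 3.11% of all protein-coding genes. CCAAT, the letters bound by the factor to which Php5 belongs, stood in 23 of 42 member promoters (54.8%) and in 42.2% of all promoters. The CRE core stood in 4 members (9.52%), namely *cit1*, *idn1*, *gpa2* and *isp3*, and in 5.91% of all genes. GATAA, the core of GATA factor sites, stood in 22 members (52.4%) and in 59.5% of all genes. In the 1000 bases before the coding sequence the CRE core stood in 9 members (21.4%), 3 of 17 glucose set genes (17.6%) and 14.7% of all genes, and the STRE core in 13 members (31.0%), 10 of 17 glucose set genes (58.8%) and 9.84% of all genes, so the absence of a CRE core from the glucose set holds for the short window only. These matches describe letters and are not evidence of binding.

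**Figure D3:**
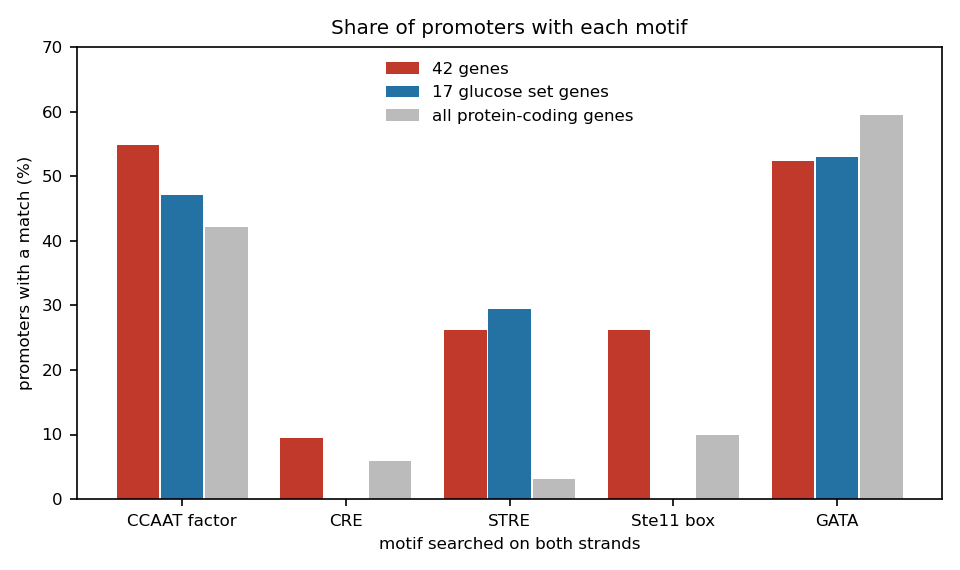
Share of promoters (vertical axis, percent) that hold each motif on either strand, within 250 bases before to 50 bases after the transcript start, for the 42 genes, the 17 glucose set genes and 5113 protein-coding genes. The STRE core is found in 26.2% of the 42 genes and 29.4% of the glucose set against 3.11% of all genes, while the Ste11 box (TTCTTTG) is found in 26.2% of the 42 genes, none of the glucose set and 9.94% of all genes in this window, but in 29.4% of the glucose set within 1000 bases before the coding sequence.

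Pheromone signalling, mating and meiosis made the largest group with a named function. It held *ste11*, the transcription factor that switches on mating and meiosis genes, *mei2*, whose RNA-binding product drives meiosis, the Gα subunit gene *gpa1*, its regulator *rgs1*, the MAP kinase gene *spk1* of the pheromone pathway, the pheromone genes *map2* (P-factor) and *mfm1* (M-factor), *map1* (a MADS-box factor), *ste7* (an arrestin-like meiosis protein), *srw1* (a coactivator of the anaphase promoting complex in G1) and *dni2* (a claudin-like protein). Compared with the wild type, 9 of the 11 were more than 2-fold higher in *tup11∆/tup12∆* under glucose rich conditions (3.51% of all features), the exceptions being *srw1* and *mfm1*, and 9 of 11 under glucose starvation (4.08%), the exceptions being *ste7* and *ste11*. Without *php5*, 10 of 11 were more than 2-fold lower under glucose starvation, the exception being *ste11*, beside 34.2% of all features in the library that stood apart. In glucose rich cultures 1 of 10 tested, *ste7*, was lower without *php5* (1.4% of all features), and *map2* was more than 2-fold higher (4.28%).

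*gpa1* had 27.8, 70.3 and 102 TPM in the wild type in glucose rich, glucose-starved and nitrogen-starved cultures, 85.7, 481 and 685 in *tup11∆/tup12∆* libraries and 101, 73.7 and 246 in *tup11∆/tup12∆/php5∆* libraries. *rgs1* had 4.77, 17.7 and 15.5 TPM, then 89.2, 86.7 and 320, then 54.5, 5.55 and 39.9. *spk1* had 36.4, 60.7 and 74.4 TPM, then 81.9, 136 and 423, then 77.7, 29.7 and 104. The 3 genes of the pathway from receptor to kinase thus reached their highest values in the *tup11∆/tup12∆* library under nitrogen starvation. Under glucose rich conditions both mutant libraries lay above the wild type for all 3, and under glucose starvation the *tup11∆/tup12∆/php5∆* library lay at about the wild-type level for *gpa1* and below it for *rgs1* and *spk1*.

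The ratio of *tup11∆/tup12∆* to *tup11∆/tup12∆/php5∆* for *rgs1* was 1.64 (1.58 to 1.70) under glucose rich conditions and 15.6 (14.3 to 17.1) under glucose starvation. For *gpa1* the same ratios were 0.849 (0.821 to 0.877) and 6.53 (6.35 to 6.71), and for *spk1* 1.05 (1.02 to 1.09) and 4.57 (4.36 to 4.80). The coding sequence of *spk1* lies wholly under other annotated transcripts, including that of *hem4*, from which reads without strand cannot be told apart.

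*ste11* was at 9.86, 33.0 and 31.5 TPM in the wild type, 30.6, 33.8 and 92.1 in *tup11∆/tup12∆* and 32.6, 33.1 and 28.5 in *tup11∆/tup12∆/php5∆*. Its level under glucose starvation was alike in the 3 strains, with ratios of *tup11∆/tup12∆* of 1.02 to wild-type (0.966 to 1.08) and 1.02 to *tup11∆/tup12∆/php5∆* (0.968 to 1.08). It stood 3.10-fold (2.88 to 3.34) above wild-type in *tup11∆/tup12∆* under glucose rich conditions. Under nitrogen starvation, the medium of the rule, the *tup11∆/tup12∆/php5∆* library returned to 0.905 times (0.850 to 0.963) the wild-type TPM.

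*mei2* was at 1.64, 29.7 and 24.9 TPM in the wild type, 43.4, 79.6 and 181 in *tup11∆/tup12∆* and 45.2, 38.6 and 76.8 in *tup11∆/tup12∆/php5∆*. Under glucose rich conditions, where the wild type had next to none, the *tup11∆/tup12∆* library was 26.4-fold higher (23.2 to 30.1) and did not exceed *tup11∆/tup12∆/php5∆*, with a ratio of 0.959 (0.926 to 0.994). In the *tup11∆/tup12∆/php5∆* library under nitrogen starvation *mei2* kept 3.09 times (2.96 to 3.22) the wild-type level. *gpa1* and *rgs1* likewise remained 2.42-fold (2.35 to 2.49) and 2.58-fold (2.41 to 2.77) above wild-type there.

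*map2* was the pheromone gene with the widest range, with 1.52, 1.35 and 43.2 TPM in the wild type, 10.1, 89.7 and 144 in *tup11∆/tup12∆* and 30.0, 8.26 and 30.4 in *tup11∆/tup12∆/php5∆*. It was 66.3-fold (48.6 to 93.0) higher in *tup11∆/tup12∆* than in the wild type under glucose starvation, and 2.97-fold (2.65 to 3.33) higher in *tup11∆/tup12∆/php5∆* than in *tup11∆/tup12∆* under glucose rich conditions. *mfm1* was low throughout, with 5.84, 3.97 and 4.94 TPM, then 3.93, 11.08 and 15.9, then 2.96, 0 and 6.03, and against the library at 0 reads the *tup11∆/tup12∆* library was at least 31.3-fold higher, taking 3 reads as the floor of that library. Of the positions at which a 50-base stretch of the coding span can start, 27.8% in *mfm1* and 7.90% in *map2* gave a stretch found elsewhere in the genome, so their values are less certain; the other 40 members had no such stretch.

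*ste7* and *map1* completed the pattern at lower levels. *ste7* had 3.77, 48.6 and 30.0 TPM in the wild type, 15.8, 58.1 and 99.2 in *tup11∆/tup12∆* and 6.91, 7.32 and 24 in *tup11∆/tup12∆/php5∆*. *map1* had 4.51, 10.6 and 18.5 TPM, then 19.99, 40.3 and 51.7, then 17.4, 8.01 and 24.6. For *ste7* the *tup11∆/tup12∆/php5∆* library was lower than *tup11∆/tup12∆* in each of the 3 media, by ratios of *tup11∆/tup12∆* to *tup11∆/tup12∆/php5∆* of 2.29 (2.09 to 2.5) under glucose rich conditions and 7.93 (7.37 to 8.55) under glucose starvation. *srw1* and *dni2* reached 94.0 and 21.1 TPM in *tup11∆/tup12∆* under nitrogen starvation and were 3.66-fold (3.49 to 3.83) and 12.1-fold (9.63 to 15.3) higher in *tup11∆/tup12∆* than in *tup11∆/tup12∆/php5∆* under glucose starvation.

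Haploid cells express the genes of 1 mating type, and the study lists strains of both (h+ and h−), without a label that says which were sequenced. All *tup11∆/tup12∆/php5∆* strains it lists are h+, whereas the *tup11∆/tup12∆* strains include both types. Among listed strains without these deletions, those with the *ura4-D18* allele are h+, and *ura4* had 0 TPM in the wild-type libraries. The summed TPM of 8 M cell markers lay between 86.3 and 142 in wild-type, 81.6 and 155 in *tup11∆/tup12∆* and 47.2 and 140 in *tup11∆/tup12∆/php5∆* libraries, with *mat1-Mc* listed at 0 in all 9. Repeated stretches were counted in members only, so whether the 0 of *mat1-Mc* means absence of its transcript was not tested. The sum of the 2 P cell markers in the table, *map2* and *map3*, lay between 24.3 and 67.9, 36.5 and 179, and 18.0 and 77.9 TPM. Its highest value came from the *tup11∆/tup12∆* library under nitrogen starvation, where *map2* contributed 144 TPM. The part of mating type in these differences was not tested.

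A fixed list of mating and early meiosis genes, 17 of which are in the table, contained 6 members (*gpa1*, *rgs1*, *mei2*, *ste11*, *map2* and *mfm1*). In glucose rich cultures 7 of 15 tested were more than 2-fold higher in *tup11∆/tup12∆* than in the wild type (3.51% of all features) and under glucose starvation 6 of 16 (4.08%). Without *php5*, 14 of 16 were more than 2-fold lower under glucose starvation (34.2% of all features, in the library that stood apart), but 0 of 14 were under glucose rich conditions (1.4%), where 2 were higher (4.28%). Listed genes that were not members included the receptor gene *map3*, at 24.8 TPM in wild-type, 35 in *tup11∆/tup12∆* and 47.4 in *tup11∆/tup12∆/php5∆* under nitrogen starvation, and *ste4*, at 52.3, 154 and 97.0 TPM.

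The promoters of *ste11*, *mei2*, *spk1* and *rgs1* are shown for the letters TTCTTTG, the box bound by Ste11, which stood in 9 of the 11 members of the pheromone and mating group and in 2 of the other 31 members. The group was drawn after the values were seen. It left out *isp3*, *mug24* and *mug86*, whose names refer to sexual differentiation or meiosis and whose promoters held no match. The box was found in 26.2% of member promoters, 0 of 17 glucose set promoters and 9.94% of all promoters. The difference from the glucose set depended on this window, since the 1000 bases before the coding sequence held the box in 42.9% of members, 5 of 17 glucose set genes (29.4%) and 33.0% of all genes. The runs end at the base before the transcript start, read 5′ to 3′ along the gene, and have Ste11 box, CCAAT and STRE matches on either strand in capitals (the box reads CAAAGAA on the opposite strand). They cover chrII:3983196-3983375 on the plus strand for *ste11* (SPBC32C12.02), chrI:4515026-4515205 on the minus strand for *mei2* (SPAC27D7.03c), chrI:3001519-3001768 on the minus strand for *spk1* (SPAC31G5.09c) and chrI:679603-679802 on the plus strand for *rgs1* (SPAC22F3.12c), in RefSeq ASM294v3.
ste11: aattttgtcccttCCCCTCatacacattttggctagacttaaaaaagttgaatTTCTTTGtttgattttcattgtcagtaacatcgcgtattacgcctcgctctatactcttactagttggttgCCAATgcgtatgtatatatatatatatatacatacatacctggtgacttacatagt
mei2: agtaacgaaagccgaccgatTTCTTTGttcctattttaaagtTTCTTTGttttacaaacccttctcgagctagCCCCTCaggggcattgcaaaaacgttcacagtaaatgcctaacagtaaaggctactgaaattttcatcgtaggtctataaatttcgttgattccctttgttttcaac
spk1: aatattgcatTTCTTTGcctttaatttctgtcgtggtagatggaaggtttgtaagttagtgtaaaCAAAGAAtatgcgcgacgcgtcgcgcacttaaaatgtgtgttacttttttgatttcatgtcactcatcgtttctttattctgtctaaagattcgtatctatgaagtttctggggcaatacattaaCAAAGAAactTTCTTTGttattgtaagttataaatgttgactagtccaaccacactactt
rgs1: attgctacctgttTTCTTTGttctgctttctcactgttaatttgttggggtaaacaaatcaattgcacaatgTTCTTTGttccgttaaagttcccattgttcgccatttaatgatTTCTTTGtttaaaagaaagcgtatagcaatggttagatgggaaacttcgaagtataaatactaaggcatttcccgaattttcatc

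Within these stretches *spk1* had 4 matches to the Ste11 box, *rgs1* had 3, *mei2* had 2 and *ste11* had 1. *ste11* and *mei2* also had a STRE match each, and *ste11* had a CCAAT match. Among the listed mating genes, the box was present in 5 of 6 members and in 7 of 11 non-members, so it did not set the members apart within that list.

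**Figure D4:**
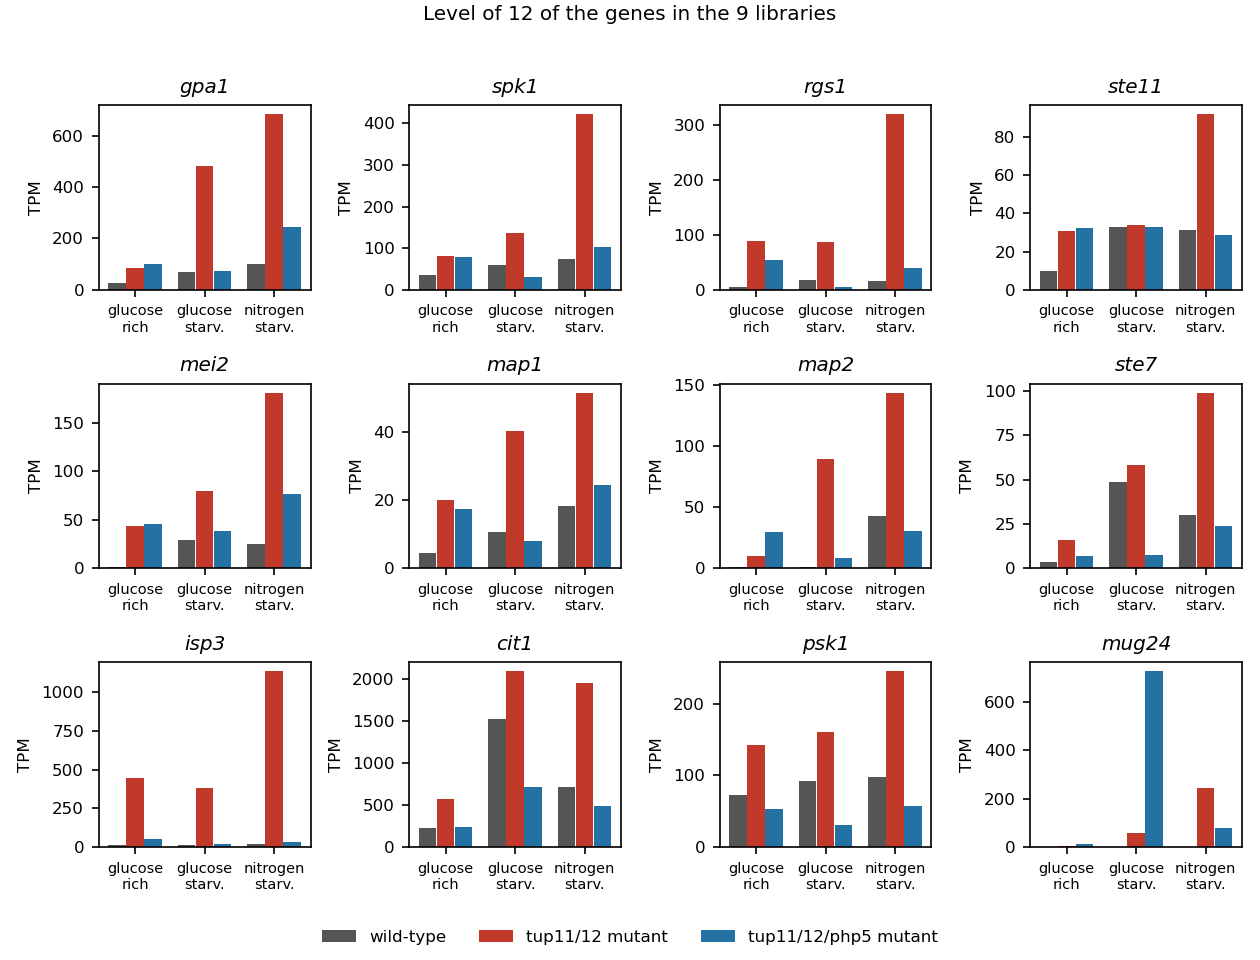
Bars give the TPM (vertical axes, linear and starting at 0) of 12 of the 42 genes in the 9 libraries, by medium (horizontal axes) and strain (colours), with 1 library per bar and so no error bars. *gpa1*, *spk1*, *rgs1* and *map1* show both mutants above the wild type under glucose rich conditions and a high *tup11∆/tup12∆* bar alone under glucose starvation, *isp3*, *cit1* and *psk1* show a *tup11∆/tup12∆* bar above *tup11∆/tup12∆/php5∆* in each medium, and *mug24* has its highest bar, 728 TPM, in *tup11∆/tup12∆/php5∆* under glucose starvation.

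Members lower without *php5* in each medium were few. Of the 42, 8 were more than 2-fold lower in *tup11∆/tup12∆/php5∆* than in *tup11∆/tup12∆* in both glucose media in addition to nitrogen starvation. They were *cit1*, *isp3*, *psk1*, *ste7*, *pfl8*, *but1*, *btb1* and *pfl7*. Of the 40 members tested in both glucose media they made up 20%, against 51 of 4901 features (1.04%) and 4 of 17 glucose set genes (23.5%). SPCC1235.17 alone was lower under glucose rich conditions but not past 2-fold under glucose starvation, 25 members were lower under glucose starvation only, and 8 in neither glucose medium. Of all features tested, 34.2% were lower without *php5* under glucose starvation, in the library that stood apart, and 1.4% under glucose rich conditions. The share of all features lower in a single glucose medium was not counted.

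*isp3*, which was named for its expression in sexually differentiating cells, gave the clearest pattern of these, with 14.4, 14.9 and 16.6 TPM in the wild type, 444, 382 and 1136 in *tup11∆/tup12∆* and 48.8, 20.6 and 33.0 in *tup11∆/tup12∆/php5∆*. The wild-type level hardly moved between media, and each *tup11∆/tup12∆* library lay far above both others of its medium. In *tup11∆/tup12∆* the TPM exceeded wild-type 30.9-fold (28.3 to 33.8) under glucose rich conditions and 25.6-fold (23.1 to 28.3) under glucose starvation. It exceeded *tup11∆/tup12∆/php5∆* 9.10-fold (8.64 to 9.59) and 18.5-fold (17.2 to 19.99) in these media.

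*psk1*, a kinase gene of the S6 kinase family, had 73.2, 91.5 and 98 TPM in the wild type, 143, 160 and 245 in *tup11∆/tup12∆* and 52.4, 30.4 and 57.2 in *tup11∆/tup12∆/php5∆*. Its *tup11∆/tup12∆/php5∆* level was below wild-type in all 3 media, and its ratios of *tup11∆/tup12∆* to wild-type in the glucose media, 1.95 (1.89 to 2.01) and 1.75 (1.69 to 1.80), did not pass 2-fold. Those of *tup11∆/tup12∆* to *tup11∆/tup12∆/php5∆* were 2.73 (2.63 to 2.83) and 5.25 (5.03 to 5.48). *isp3* and *psk1* are shown next for their CCAAT letters, the latter with 3 matches, of which a pair stand next to each other in opposite directions. Capitals mark CCAAT and CRE matches on either strand, on chrI:95640-95789 (plus strand) for *isp3* (SPAC1F8.05) and chrIII:459496-459675 (minus strand) for *psk1* (SPCC4G3.08) in RefSeq ASM294v3.
isp3: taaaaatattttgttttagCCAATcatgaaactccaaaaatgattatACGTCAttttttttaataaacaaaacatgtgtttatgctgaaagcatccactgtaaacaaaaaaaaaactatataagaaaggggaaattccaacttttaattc
psk1: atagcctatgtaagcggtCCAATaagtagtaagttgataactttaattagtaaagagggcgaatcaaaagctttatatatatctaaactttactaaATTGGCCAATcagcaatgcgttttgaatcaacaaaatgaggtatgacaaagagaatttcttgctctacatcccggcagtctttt

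The other kinase and signalling members behaved differently from one another. *gpa2*, whose product passes the glucose signal to adenylate cyclase, had 42.3, 84.4 and 54.4 TPM in the wild type, 112, 200 and 230 in *tup11∆/tup12∆* and 92.6, 166 and 103 in *tup11∆/tup12∆/php5∆*. It was more than 2-fold above wild-type in *tup11∆/tup12∆* in both glucose media, and its ratios of *tup11∆/tup12∆* to *tup11∆/tup12∆/php5∆* there were 1.21 (1.17 to 1.25) and 1.20 (1.17 to 1.23). *ppk33*, another protein kinase gene, had 1.91, 2.76 and 4.44 TPM, then 74.9, 98.2 and 228, then 45.2, 17.5 and 46.9. *ppk33* was thus nearly silent in the wild type in all 3 media, and *tup11∆/tup12∆* exceeded wild-type 39.2-fold (32.9 to 47.1) under glucose rich and 35.6-fold (30.0 to 42.4) under glucose starvation conditions. Under nitrogen starvation its *tup11∆/tup12∆/php5∆* level remained 10.6-fold (9.24 to 12.1) above wild-type.

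*btb1*, which encodes a substrate adaptor of a ubiquitin ligase, had 9.63, 18.5 and 13.7 TPM in the wild type, 19.6, 21.5 and 41.1 in *tup11∆/tup12∆* and 7.11, 3.94 and 11.8 in *tup11∆/tup12∆/php5∆*. SPBC1773.12, annotated as a transcription factor, had 2.22, 0.861 and 12.4 TPM, then 10.1, 7.47 and 83.9, then 7.39, 1.08 and 32.0. *mit1*, the remodelling ATPase of the SHREC silencing complex, had 6.11, 8.95 and 7.72 TPM, then 6.33, 8.82 and 17.2, then 5.65, 5.16 and 8.56. *mit1* passed 2-fold under nitrogen starvation only, and its ratios of *tup11∆/tup12∆* to wild-type in the glucose media were 1.04 (0.969 to 1.11) and 0.985 (0.924 to 1.05).

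All 5 transporter and surface protein members were more than 2-fold lower without *php5* under glucose starvation, where 34.2% of all features were, in the library that stood apart. *mug86*, an acetate transporter gene, had 16.3, 28.4 and 12.4 TPM in the wild type, 41.4, 200 and 99.8 in *tup11∆/tup12∆* and 22.5, 29.6 and 17.2 in *tup11∆/tup12∆/php5∆*. The surface glycoprotein genes *pfl8* and *pfl7* had 102 and 24.7 TPM in *tup11∆/tup12∆* under glucose rich conditions against 20.1 and 10.6 in the wild type and 32.2 and 11 in *tup11∆/tup12∆/php5∆*. A fixed list of 10 genes, of flocculins, surface adhesins and the flocculation factor *mbx2*, held only these 2 members. Under glucose rich conditions they were the only 2 of 7 tested that were more than 2-fold lower in *tup11∆/tup12∆/php5∆* than in *tup11∆/tup12∆* (1.4% of all features), whereas under glucose starvation 4 of 7 were lower (34.2%). *zrg17*, a Golgi zinc importer gene, and *tgp1*, a glycerophosphodiester transporter gene, were named after their values were seen. *zrg17* had 44.8, 111 and 157 TPM in *tup11∆/tup12∆* and 53.5, 11.7 and 69.5 in *tup11∆/tup12∆/php5∆*. *tgp1* had 9.19, 10.8 and 63.0 TPM in the wild type, 4.92, 24 and 180 in *tup11∆/tup12∆* and 10.7, 6.32 and 44.8 in *tup11∆/tup12∆/php5∆*, so that *tup11∆/tup12∆/php5∆* exceeded *tup11∆/tup12∆* 2.17-fold (1.95 to 2.42) under glucose rich conditions.

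Among the 12 members of other or unknown function, some had next to no transcript in the wild type. SPAPJ695.02, an uncharacterized gene, had 0.707, 2.5 and 12.1 TPM in the wild type, 250, 33.5 and 902 in *tup11∆/tup12∆* and 209, 64.9 and 320 in *tup11∆/tup12∆/php5∆*. It was 353-fold (192 to 738) higher in *tup11∆/tup12∆* than in the wild type under glucose rich conditions, with a ratio of *tup11∆/tup12∆* to *tup11∆/tup12∆/php5∆* of 1.20 (1.14 to 1.26), and under nitrogen starvation *tup11∆/tup12∆/php5∆* remained 26.4-fold (22.2 to 31.5) above wild-type. Its level was thus more than 2-fold lower without *php5* under nitrogen starvation only.

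*mug24*, an RNA-binding protein gene, had 0.598, 1.56 and 1.71 TPM in the wild type, 4.38, 59.5 and 242 in *tup11∆/tup12∆* and 10.6, 728 and 77.0 in *tup11∆/tup12∆/php5∆*. Under glucose starvation the *tup11∆/tup12∆/php5∆* library was 12.2-fold (11.9 to 12.6) higher than *tup11∆/tup12∆*, the only member more than 2-fold higher there, and under nitrogen starvation it was still 45.1-fold (38.9 to 52.6) above wild-type. The coding span of *mug24* and that of SPAPB1A11.06, described next, lie wholly under other annotated transcripts, from which reads without strand cannot be told apart. *mug24* and *mug86* were the only members among 91 genes whose symbol starts with mug (meiotically upregulated genes), and of the 82 tested under glucose starvation 41 were more than 2-fold lower in *tup11∆/tup12∆/php5∆* than in *tup11∆/tup12∆* (34.2% of all features, in the library that stood apart) and 11 were higher (5.31%).

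SPAPB1A11.06, also uncharacterized, had 6.54, 68.5 and 17 TPM in the wild type, 15.1, 845 and 62.0 in *tup11∆/tup12∆* and 15.7, 17.8 and 8.23 in *tup11∆/tup12∆/php5∆*. Its ratio of *tup11∆/tup12∆* to *tup11∆/tup12∆/php5∆* under glucose starvation, 47.4 (40.4 to 56.1), was the largest of the members with reads in both libraries, and it was the only member whose *tup11∆/tup12∆/php5∆* level was more than 2-fold below wild-type under nitrogen starvation. *hry1*, named after its values were seen, encodes a protein with a cation-binding HHE domain and had 0.0492, 54.4 and 1.01 TPM in the wild type, 0.142, 343 and 26.2 in *tup11∆/tup12∆* and 0.0284, 60.8 and 3.89 in *tup11∆/tup12∆/php5∆*. Its values under glucose rich conditions were too low to compare. SPCC1235.17 had 4.26, 35.7 and 0.496 TPM, then 15.6, 27 and 41.0, then 1.23, 51.7 and 15.6.

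*fah2*, a fatty-acid amide hydrolase gene, had 6.83, 52.7 and 58.9 TPM in the wild type, 26.6, 63.4 and 397 in *tup11∆/tup12∆* and 39.0, 41.6 and 163 in *tup11∆/tup12∆/php5∆*. *pom34*, a nucleoporin gene, had 68.9, 107 and 117 TPM, then 140, 279 and 236, then 90.3, 39.3 and 90.7. SPAC11D3.15, which encodes a 5-oxoprolinase, had 12.3, 62.7 and 103 TPM, then 16.7, 26.2 and 213, then 20.7, 12.4 and 57.0. SPAC11D3.15 was 2.39-fold (2.32 to 2.47) higher in wild-type than in *tup11∆/tup12∆* cells under glucose starvation, opposite to its direction under nitrogen starvation. *but1*, *ecl3* and SPCC757.06, with 55.7, 45.5 and 44.4 TPM in *tup11∆/tup12∆* under nitrogen starvation, were 3.92-fold (3.64 to 4.23), 7.2-fold (6.26 to 8.32) and 2.28-fold (1.90 to 2.73) above wild-type in *tup11∆/tup12∆* under glucose rich conditions.

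Not all members were back at the wild-type level without *php5* under nitrogen starvation. In the *tup11∆/tup12∆/php5∆* library 10 of 41 members tested were still more than 2-fold above wild-type, beside 6.26% of all features tested, and 1 was more than 2-fold below (4.25%). The 10 were *mdh1*, *gpa1*, *rgs1*, *mei2*, *fah2*, *mug24*, *ppk33*, SPAPJ695.02, SPBC1773.12 and SPCC1235.17. The median log2 difference of the members was 0.24 against -0.05 for all features. Both libraries of this comparison entered the rule through other ratios, so these nitrogen starvation values are a description. In the glucose media, which show *php5* and the corepressors deleted together without nitrogen starvation, 21 of 40 members tested were more than 2-fold above the wild type under glucose rich conditions (6.93%) and 0 were below (3.31%), whereas under glucose starvation 4 of 40, *mug24*, SPAPJ695.02, *ppk33* and *map2*, were above (5.32%) and 19 below (48.9%).

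The change from glucose rich to starved medium also differed by strain. Nitrogen starvation raised 22 of 38 members tested past 2-fold in the wild type (18.1% of all features), 35 of 42 in *tup11∆/tup12∆* (28.6%) and 12 of 41 in *tup11∆/tup12∆/php5∆* (13.9%). In *tup11∆/tup12∆* the median log2 change was 1.71 for members and 0.54 for all features, and with size factors these became 1.18 and 0.02. These counts use the libraries that chose the members and are a description. The 2 media also differ in base medium and in glucose (6% against 1%), from which the loss of nitrogen cannot be told apart. Glucose starvation raised 19 of 37 members tested in the wild type (19.2% of all features; 21 of 42 members met the ratio with no minimum TPM), 22 of 42 in *tup11∆/tup12∆* (17.5%) and 6 of 41 in *tup11∆/tup12∆/php5∆* (7.88%), where 15 fell (38%). In *tup11∆/tup12∆/php5∆* the median change of the members was -0.47 against -0.67 for all features, and with size factors it took the opposite sign, 0.18 against -0.02.

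The members lay on chromosome I (23, 54.8%), chromosome II (10, 23.8%) and chromosome III (9, 21.4%). Of all protein-coding genes, 45.6%, 36.5% and 17.9% lay on these chromosomes. Within 100 kb of a chromosome end were 5 of 42 (11.9%), namely SPCC757.06, SPAPJ695.02, *hry1*, *isp3* and *ecl3*, against 3 of 17 glucose set genes (17.6%) and 3.64% of all protein-coding genes. Within 200 kb were 9 members (21.4%), 9 of 17 glucose set genes (52.9%) and 8.25% of all genes. Next to each other on chromosome I were *isp3* and *pfl8*, with 3462 bases between their coding sequences, and *rki1* and *srw1*, with 937 bases. These 4 members make 9.52% of the set, while 1.64% of all protein-coding genes had a member as a direct neighbour. A window of 5 genes on either side held another member for the same 4 (9.52%), beside 7.74% of all protein-coding genes. Within 5 genes of a glucose set gene lay 5 members (11.9%, against 2.89% of all genes). They were SPAPJ695.02, between SPAC977.17 and *ght3*, *isp3* and *pfl8*, between *ght3* and SPAC11D3.19, SPAC11D3.15, close to SPAC11D3.18c, and *pfl7*, close to *mug14*. All 42 members encode proteins, with a median feature length of 1129.5 bases against 1098 for all features. The transcripts of other genes overlapped the coding sequence of 34 members (81.0%, against 81.6% of all), for 4 of them, *idn1*, *spk1*, *idh2* and *gor1*, those of another protein-coding gene. In 9 members, *idn1*, *spk1*, *mug24*, SPAPB1A11.06, *hry1*, *fah2*, *pom34*, *but1* and *gti1*, the whole coding span lay under other transcripts, so that their values may include reads of those.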

How the data were processed

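Poly(A) RNA of 9 cultures (3 strains in 3 media, 1 library each) was sequenced without strand. Per the labels and methods, the authors mapped reads to ASM294v2 and counted them per feature, and the submitters' processing notes name fastp, HISAT2, SAMtools and featureCounts, with versions not given in the sources used here. The authors deposited TPM for 5323 features with their lengths in bases. The number of sample columns left unused was 0.

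Reads were recovered from the deposited TPM as TPM times length over the step of each library, and 100% of the values came out whole within 0.1 read, at 36652045 to 54303622 reads per library. Log2 values used a pseudocount of 1. Features with at least 5 TPM in either library were compared, and a feature was called past 2-fold. With 1 library per condition no test was run and intervals cover counting error only.

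Members and gene lists were chosen with earlier results of these data known. The gene that the rule leaves out by name is not reported here. Genes named in the text were the 15 members with the highest TPM in the *tup11∆/tup12∆* nitrogen starvation library, members past 2-fold in both glucose media without *php5*, members in a fixed list or with a symbol starting with mug, the 3 genes on either side of each threshold, members past 2-fold over wild-type under glucose rich conditions, neighbouring members and the deleted genes. Other names are said to be chosen later. Of the fixed lists, those for iron uptake, hexose transport, nitrogen scavenging, core stress genes, heat shock proteins and the CCAAT and Tup factors held 0 members.

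Positions and sequences come from RefSeq ASM294v3, in which all 2724 genes with 1 coding segment have the ends of the deposited table. In 601 genes the annotated transcript start is the coding start. Alternatives were other scalings, fold limits, TPM minimums, pseudocounts, distances and promoter windows. The scripts were tested on simulated data. Tools were scipy 1.17.1, pandas 2.3.3, matplotlib 3.10.9 and numpy 2.4.6 under Python 3.11.15.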

Additional observations from a re-analysis of the deposited data

Results flagged for a closer look

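In 4 members the difference between 2 strains ran past 2-fold in opposite directions in different media, with 1 library per condition, and in none was the difference between media tested. *mug24* was higher in *tup11∆/tup12∆/php5∆* than in *tup11∆/tup12∆* by 2.42 times under glucose rich conditions and by 12.2 times under glucose starvation, but lower under nitrogen starvation. *tgp1* was higher in *tup11∆/tup12∆/php5∆* by 2.17 times under glucose rich conditions and lower in both starvation media. *map2* was higher in *tup11∆/tup12∆/php5∆* by 2.97 times under glucose rich conditions and lower in both starvation media. SPAC11D3.15 was higher in *tup11∆/tup12∆* than in wild-type cells by 2.06 times under nitrogen starvation and lower under glucose starvation. For the nitrogen starvation side of each pair the direction was set by the rule that chose the members.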

How the results depend on the processing

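Of 114 results recomputed under 12 settings, 91 stayed within 1.5 times (counts) or within the middle members' ratios (medians), 22 moved further and 1 reversed. No paired analysis was possible because each condition has 1 library and the labels give no shared replicate numbers. A fold limit of 1.5 gave 126 members, among them all 42, and a limit of 3 gave 14. With size factors 32 of the 42 met the rule. Those that did not were *mdh1*, *sdh1*, *idh2*, *gti1*, *pom34*, SPAC11D3.15, *srw1*, *map1*, *pfl8* and *mit1*. Over wild-type, the *tup11∆/tup12∆* count under glucose rich conditions became 18 at 3-fold and 19 at a minimum of 20 TPM, with a median of 0.89 at a pseudocount of 10, and under glucose starvation 16 at 3-fold, with a median of 1.61 with size factors. Over *tup11∆/tup12∆/php5∆*, the *tup11∆/tup12∆* count under glucose rich conditions became 14 at 1.5-fold and 3 at 3-fold, and the median under glucose starvation 1.62 with size factors and 1.5 at a pseudocount of 10. The *tup11∆/tup12∆/php5∆* count over wild-type under nitrogen starvation became 5 at 3-fold. From glucose rich to nitrogen starvation the *tup11∆/tup12∆* median became 1.18 with size factors and the *tup11∆/tup12∆/php5∆* count 19 at 1.5-fold. From glucose rich to glucose starvation the *tup11∆/tup12∆* count became 14 at 3-fold, and with size factors the *tup11∆/tup12∆/php5∆* count became 11 and its median turned from -0.47 to 0.18. The size factor of that *tup11∆/tup12∆/php5∆* library was 0.606, against 0.865 to 1.25 in the others, and the cause was not tested. Within 50 kb of a chromosome end lay 0 members and within 200 kb 9. In the 1000 bases before the coding sequence, CCAAT stood in 41 members (85.0% of all genes), the CRE core in 9 (14.7%), the Ste11 box in 18 (33.0%, and 5 of 17 glucose set genes) and GATAA in 41 (95.7%). Depth limits values near the floor of 3 reads, such as *mfm1* and *hry1*, and absence of replicates limits all others.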
